A study of Mus musculus with 2 samples.

Results

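Messenger RNA of 10 genes that drive or receive signals for red blood cell formation was examined in the mouse spleen: the transcription factors Gata1, Klf1, Tal1, Gfi1b and Nfe2, the cofactors Lmo2, Ldb1, Zfpm1 and Hemgn, and Epor, the receptor for erythropoietin. They were found by symbol among 43346 genes with an Ensembl identifier, and each matched 1 gene and together 45 transcripts. The tissue was bulk spleen of 1 male mouse of the C57BL/6J strain, 10 weeks old, with no treatment or genetic change in the labels, and polyadenylated RNA was sequenced. The samples are 2 sequencing libraries of the same biological replicate: technical replicate 2, which per the labels was performed in 2015, and technical replicate 1. Since each is a single library, no p-value was computed and no comparison has replicates behind it. It is 1 animal, so nothing here speaks for other mice.

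In red cell precursors, GATA1 binds GATA motifs in DNA together with TAL1, which binds E boxes, and the bridging proteins LMO2 and LDB1 join them into 1 complex that can also link distant enhancers to promoters. KLF1 binds CACCC-type motifs in globin and other erythroid genes, NF-E2 acts at the globin locus control region, and GFI1B is a repressor. Erythropoietin, acting through its receptor and the kinase JAK2, keeps late progenitors alive. The mouse spleen, unlike the human spleen, keeps erythroid precursors in its red pulp throughout adult life. Several of these factors also act in megakaryocytes, mast cells and blood progenitors.

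Technical replicate 2 held 3806385 expected counts on genes and technical replicate 1 held 27528810, so each gene rests on far fewer reads in technical replicate 2. An expected count is an estimate in which reads shared between transcripts are divided among them. Levels are given as TPM, each transcript's share of all transcripts, which is corrected for transcript length, with a 95% Poisson interval that covers counting error only. Ratios are technical replicate 2 over technical replicate 1 on the log2 scale after TMM scaling (a trimmed mean of ratios over 12467 tested genes), with an exact Clopper-Pearson 95% interval. A gene was called higher or lower where its whole interval lay beyond 1.5-fold. TMM adds 1.26 to each log2 ratio that total counts would give. Over all tested genes the median log2 ratio was -0.27 with TMM, -1.53 with total counts and -2.10 when log2(TPM + 1) values were subtracted. A gene lower in TPM can thus be higher than most genes.

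All 10 genes were detected in both libraries and passed the filter on low values. Under TMM, 6 of them were called higher in technical replicate 2 (Gata1, Klf1, Ldb1, Gfi1b, Nfe2 and Epor), against a background of 28.0% of all tested genes called higher. Hemgn alone was called lower, where the background was 32.6% of tested genes. The median log2 ratio of the 10 genes was 2.33, and 8 of them lay above the median of all tested genes. In TPM 5 of the same genes were higher and 5 lower in technical replicate 2. Past 1.5-fold in log2(TPM + 1), 4 were higher and 5 lower, beside 8.40% of all tested genes higher and 80.8% lower. Nfe2 and Zfpm1 had a ratio above 0 under TMM and a lower TPM. Both libraries are labelled as the same biological replicate, so these are differences between libraries and not between animals or conditions. Their cause was not tested. For a level in bulk tissue, the number of cells of a type and the RNA per cell cannot be told apart.

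Ldb1 and Lmo2, the partners that bridge the complex, were the most abundant of the 10 genes in both libraries, in opposite order. In technical replicate 2 Ldb1 led with 194.18 TPM (186 to 202), followed by Lmo2 with 16.85 TPM (14.2 to 19.9). In technical replicate 1 Lmo2 led with 163.02 TPM (158 to 168), followed by Ldb1 with 95.36 TPM (92.1 to 98.7). Among all genes above 0, Ldb1 stood at percentile 97.9 in technical replicate 2 and 93.0 in technical replicate 1, and Lmo2 at 83.2 in technical replicate 2 and 96.5 in technical replicate 1. The order below them also differed. In technical replicate 2, Gata1, Nfe2 and Klf1 had overlapping intervals, and so did each neighbouring pair in the order Gfi1b, Epor, Tal1, Hemgn and Zfpm1. In technical replicate 1, Hemgn, Nfe2 and Tal1 stood apart from their neighbours, Klf1 and Gata1 overlapped, and Zfpm1, Epor and Gfi1b were lowest with overlapping intervals. Summed over the 10 genes the level was 244.73 TPM in technical replicate 2 and 330.05 TPM in technical replicate 1. Without Ldb1 and Lmo2 it was 33.7 TPM in technical replicate 2 and 71.67 TPM in technical replicate 1.

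**Figure D1:**
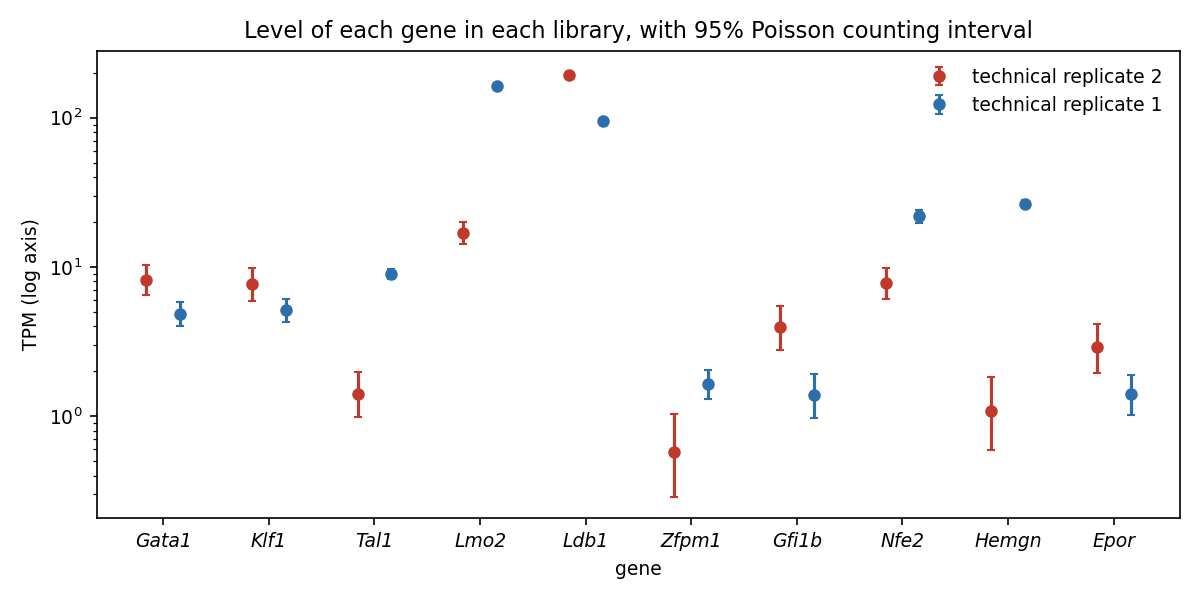
Level of each of the 10 genes in TPM (log axis) in technical replicate 2 (red, left of each pair) and technical replicate 1 (blue, right). Bars are 95% Poisson intervals of the expected count on the TPM scale. Ldb1 is highest in technical replicate 2 at 194.18 TPM and Lmo2 in technical replicate 1 at 163.02 TPM, and Hemgn shows the widest gap between the libraries.

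Gata1 (chrX:7959260-7978071, minus strand, GRCm38), the zinc finger factor that red cell maturation depends on, had 79 counts and 8.22 TPM (6.51 to 10.2) in technical replicate 2, against 124 counts and 4.87 TPM (4.05 to 5.81) in technical replicate 1. These intervals do not overlap, while the authors' deposited TPM intervals, whose level is not stated, do, at 6.06 to 10.5 in technical replicate 2 and 3.81 to 6.36 in technical replicate 1. The log2 ratio was 3.47 (3.04 to 3.88), an 11.1-fold difference under TMM that 6.25% of tested genes exceeded. Under total counts the log2 ratio was 2.20, so the higher value does not rest on TMM.

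Tal1 (chr4:115056426-115071755, plus strand), the basic helix-loop-helix factor of the complex, stood the other way in TPM. It had 34 counts and 1.42 TPM (0.983 to 1.98) in technical replicate 2, against 691 counts and 8.98 TPM (8.32 to 9.68) in technical replicate 1. The log2 ratio under TMM was -0.23 (-0.77 to 0.27) and was not called. Under total counts it was -1.49, past the threshold, so the call depends on the scaling. The ratio of Gata1 to Tal1, which no scaling can change, was 5.79 in technical replicate 2 and 0.542 in technical replicate 1 as TPM. On counts this difference was 3.69 on the log2 scale (3.02 to 4.38).

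Lmo2 (chr2:103957986-103981878, plus strand), a LIM-only adaptor without DNA binding of its own, had 138 counts and 16.85 TPM in technical replicate 2, against 4173 counts and 163.02 TPM in technical replicate 1. Its log2 ratio of -0.80 (-1.06 to -0.56) reached just inside 1.5-fold and was not called, while 40.0% of tested genes had a lower ratio. Under total counts it was -2.06 and past the threshold. Ldb1 (chr19:46031570-46045214, minus strand), the LIM-binding partner through which such complexes dimerise, had 2250 counts in technical replicate 2 and 3248 counts in technical replicate 1. Its log2 ratio was 3.59 (3.51 to 3.67), a 12.0-fold difference, and 94.2% of tested genes had a lower ratio. Between Lmo2 and Ldb1 the TPM ratio was 0.0868 in technical replicate 2 and 1.71 in technical replicate 1, a difference of -4.39 on the log2 scale of the counts (-4.66 to -4.13).

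Zfpm1 (chr8:122282141-122337251, plus strand), which encodes the GATA1 cofactor FOG1, was the lowest of the 10 genes by TPM in technical replicate 2. It had 11 counts and 0.58 TPM (0.290 to 1.04) in technical replicate 2, against 83 counts and 1.65 TPM (1.31 to 2.05) in technical replicate 1. Its deposited TPM intervals are wider and overlap, at 0.597 to 3.92 in technical replicate 2 and 1.44 to 4.47 in technical replicate 1. The deposited posterior mean TPM of Zfpm1 in technical replicate 2 was 1.97, above Tal1 at 1.67 and Hemgn at 1.1. Its place as the lowest gene is thus not settled. The log2 ratio of 1.20 (0.14 to 2.11) was not called at this depth, and under total counts it was -0.06. Ratios of Gata1 to Zfpm1 were 14.2 in technical replicate 2 and 2.95 in technical replicate 1 as TPM, and the log2 difference of 2.27 (1.23 to 3.40) on counts lay beyond 1.5-fold. The TPM ratio in technical replicate 2 rests on the same value of 0.58 TPM.

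Gfi1b (chr2:28609450-28621982, minus strand), a transcriptional repressor of red cell and platelet precursors, had the highest ratio of the 10 genes. It had 36 counts and 3.96 TPM (2.77 to 5.48) in technical replicate 2, against 35 counts and 1.39 TPM (0.968 to 1.93) in technical replicate 1. Nearly equal counts from libraries of such unequal depth gave a log2 ratio of 4.16 (3.44 to 4.87), or 17.8-fold, which 3.72% of tested genes exceeded. The deposited TPM intervals of Gfi1b are wider and overlap, at 3.13 to 9.25 in technical replicate 2 and 1.18 to 5.23 in technical replicate 1.

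Klf1 (chr8:84901928-84905291, plus strand), an activator of the adult beta globin gene, had 63 counts and 7.67 TPM (5.89 to 9.81) in technical replicate 2, against 132 counts and 5.14 TPM (4.30 to 6.10) in technical replicate 1. The TPM intervals overlap slightly, while the log2 ratio under TMM was 3.05 (2.59 to 3.49) and called higher, as it was under total counts at 1.79. A change of Klf1 against Gata1 was not detectable at this depth: the TPM ratio of Gata1 to Klf1 was 1.07 in technical replicate 2 and 0.947 in technical replicate 1 (log2 difference on counts 0.42, interval -0.21 to 1.04).

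Nfe2 (chr15:103248212-103258403, minus strand), the large subunit of the NF-E2 dimer, had 72 counts and 7.85 TPM (6.14 to 9.89) in technical replicate 2, against 411 counts and 21.78 TPM (19.7 to 24.0) in technical replicate 1. Its log2 ratio was 1.60 (1.22 to 1.97) under TMM and called higher, 0.34 under total counts and not called, and -1.36 when log2(TPM + 1) values were subtracted. No direction for Nfe2 held across these scales. The transcripts assigned to it were longer in technical replicate 2, with a deposited mean length of 1697 bases, against 1177 bases in technical replicate 1.

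Hemgn (chr4:46393989-46413506, minus strand) encodes hemogen, a nuclear protein of blood-forming cells that is itself a GATA1 target. It had 14 counts and 1.09 TPM (0.596 to 1.83) in technical replicate 2, against 1100 counts and 26.46 TPM (24.9 to 28.1) in technical replicate 1. The log2 ratio was -2.18 (-3.06 to -1.43), a 4.53-fold lower value under TMM, and the TPM was 24.3-fold lower. It was also below 0 under total counts, at -3.44. The TPM ratio of Gata1 to Hemgn was 7.54 in technical replicate 2 and 0.184 in technical replicate 1 (log2 difference on counts 5.65, interval 4.75 to 6.62).

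Epor (chr9:21958897-21963506, minus strand) had 29 counts and 2.91 TPM (1.95 to 4.18) in technical replicate 2, against 44 counts and 1.40 TPM (1.02 to 1.88) in technical replicate 1. These intervals do not overlap, and the log2 ratio was 3.52 (2.79 to 4.22), or 11.4-fold, under TMM and 2.25 under total counts. The deposited TPM intervals of Epor do overlap, at 1.73 to 3.64 in technical replicate 2 and 0.972 to 1.77 in technical replicate 1. Against Gata1 the receptor showed no detectable change, with a TPM ratio of Gata1 to Epor of 2.82 in technical replicate 2 and 3.48 in technical replicate 1 (log2 difference on counts -0.05, interval -0.89 to 0.80). For the pairs of Gata1 with Klf1, Ldb1, Gfi1b and Epor the interval of the change in count ratio reached inside 1.5-fold, which does not show that their ratios were alike. The log2 ratios of the 10 genes spanned 6.34, with an interquartile range of 3.37 beside 2.88 over all tested genes.

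**Figure D2:**
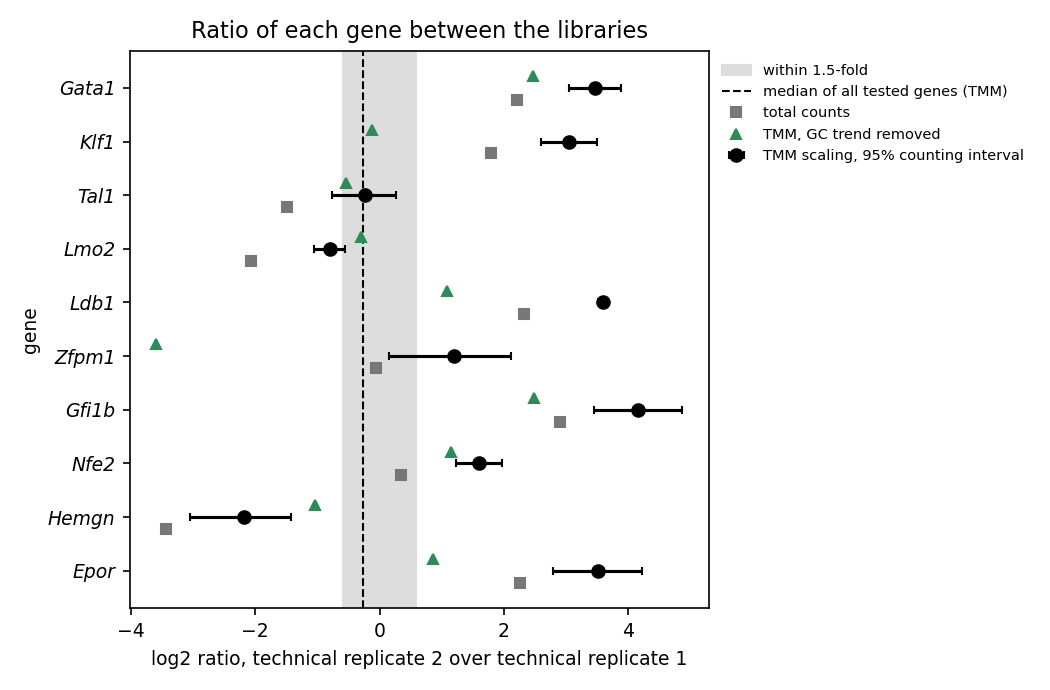
Log2 ratio of technical replicate 2 over technical replicate 1 for each gene (x axis). Black points are TMM-scaled with 95% counting intervals, grey squares use total counts, green triangles are TMM with the GC trend removed, the dashed line is the median of all tested genes under TMM (-0.27) and the grey band is within 1.5-fold. Gata1, Ldb1, Gfi1b, Nfe2 and Epor stay above 0 on all 3 scales, Hemgn, Tal1 and Lmo2 stay below 0, Klf1 is below 0 with the GC trend removed, and Zfpm1 is below 0 with total counts and with the GC trend removed.

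The ratio between the libraries ran with the GC content of transcripts across all genes, so each gene was set beside the tested genes within 1 percentage point of its GC content. Gata1 (54.9% GC) stood at percentile 90.9 of 1256 such genes, whose median log2 ratio was 0.94, and Gfi1b (56.8% GC) at percentile 90.7 of 974 genes with a median of 1.79. Klf1, at 61.0% GC, stood in the middle of its 195 neighbours, at percentile 50.3, since their median was 3.02. Ldb1 and Epor lay at percentiles 70.6 and 67.3, Nfe2 at 73.5, Lmo2 at 43.3, Tal1 at 36.4 and Hemgn, the gene of lowest GC content at 45.1%, at 26.9. Zfpm1 had the highest GC content at 65.8%, where only 20 tested genes lay within reach, and stood at percentile 10.0 of them. With the GC trend removed, 4 genes were called higher (Gata1, Ldb1, Gfi1b and Nfe2 at log2 ratios of 2.46, 1.09, 2.48 and 1.14) and 1 lower (Zfpm1 at -3.59, at the sparse end of the trend), beside 27.6% and 24.5% of all tested genes. Klf1 was then at -0.12, Epor at 0.86 and Hemgn at -1.03, none of them called. The part of GC content in these differences was not tested beyond this.

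**Figure D3:**
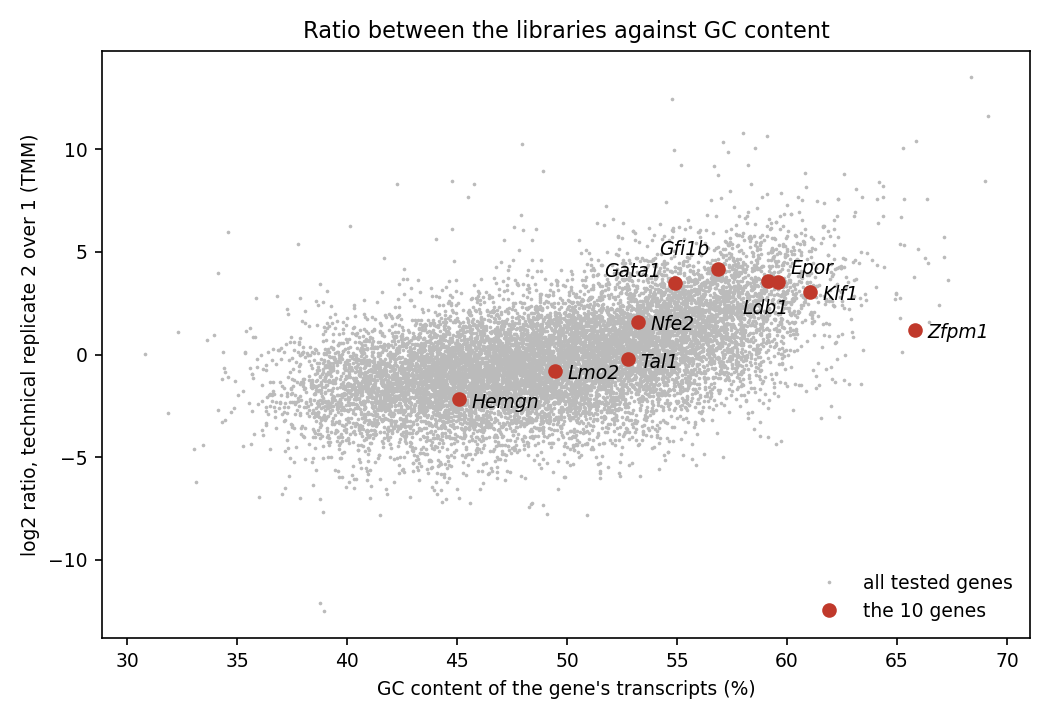
Log2 ratio of technical replicate 2 over technical replicate 1 under TMM (y axis) against the GC content of each gene's transcripts in percent (x axis). Grey dots are the tested genes with known GC content and red points the 10 genes. The cloud rises with GC content, Klf1 lies in the middle of genes of like GC content, Gata1 and Gfi1b lie in its upper part and Zfpm1 lies at its sparse right end.

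At the transcript level, 7 of the 10 genes had at least 2 transcripts above 0 and entered the comparison of the dominant transcript, the one with the largest share of the gene's TPM (deposited as IsoPct, in percent). Gata1, Lmo2, Zfpm1 and Gfi1b kept their dominant transcript, while Ldb1, Nfe2 and Hemgn did not. The dominant transcript differed for 45.6% of all 8255 genes that could be compared, so 3 of 7 is near the background. By expected count in place of TPM share, Nfe2 had the same leader in both libraries, Nfe2-201, with 72 counts in technical replicate 2 and 119.54 in technical replicate 1, and 5 of the 7 genes kept theirs. The share of TPM that moved between transcripts was 89.4% for Ldb1, 80.9% for Nfe2 and 100% for Hemgn, beside a median of 47.9% over all compared genes. Klf1 and Epor have only 1 annotated transcript each, and of the 4 transcripts of Tal1 only Tal1-201 held counts.

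Ldb1 rests on enough counts in both libraries to show this difference. Ldb1-206 held 99.95% of the gene's TPM in technical replicate 2 (2249 of 2250 counts), against 10.57% in technical replicate 1 (369.91 of 3248 counts). Ldb1-205 held 0.05% in technical replicate 2, on 1 count, against 76.40% in technical replicate 1, on 2542.06 counts. Ldb1-208 was at 0 in technical replicate 2, against 7.72% in technical replicate 1, and the retained-intron transcripts Ldb1-204 and Ldb1-203 were at 0 in technical replicate 2, against 4.14% and 1.17% in technical replicate 1. The deposited posterior mean estimates gave the same leaders, with Ldb1-206 at 94.64% in technical replicate 2 and Ldb1-205 at 75.93% in technical replicate 1. The gain of Ldb1 in TPM between the libraries thus belonged to Ldb1-206, which had 194.09 TPM in technical replicate 2 and 10.08 TPM in technical replicate 1.

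Both transcripts are annotated as protein coding and differ at both ends. Ldb1-206 begins at position 46045214 and Ldb1-205 at 46039481, 5733 bases downstream, and they share 891 coding bases of 1119 in Ldb1-206 and 957 in Ldb1-205. The bases found only in Ldb1-206 number 1134, with a GC content of 63.5%, and those found only in Ldb1-205 number 1040, with 57.9%. At the 3' end the open reading frames part. Ldb1-206 continues into a further exon with 228 coding bases (chr19:46033114-46033341, minus strand), and Ldb1-205 reads on for 66 coding bases (chr19:46033972-46034037, minus strand). These stretches are shown, 5' to 3' from the GRCm38 reference with GENCODE M21 exons, because reads on them tell the leading transcripts of the libraries apart, though other Ldb1 transcripts can share them. They are in lower case throughout, since no motif was searched in them.
Ldb1-206: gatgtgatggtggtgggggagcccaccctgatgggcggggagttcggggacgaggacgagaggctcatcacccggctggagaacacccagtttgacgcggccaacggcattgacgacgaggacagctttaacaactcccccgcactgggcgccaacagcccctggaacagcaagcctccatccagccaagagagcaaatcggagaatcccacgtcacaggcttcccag
Ldb1-205: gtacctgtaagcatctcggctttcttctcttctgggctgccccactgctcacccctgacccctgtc
On the opposite strand, exons of Pprc1 overlap 177 of the 4606 exonic bases of Ldb1. Whether strand was used in counting is not given in the sources used here, so reads there cannot be assigned with certainty. Pprc1 had 249 counts in technical replicate 2 and 1496 counts in technical replicate 1.

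Hemgn had all 14 counts of technical replicate 2 on Hemgn-201 and all 1100 counts of technical replicate 1 on Hemgn-202. The 2 transcripts hold the same 1509 coding bases and differ in their first exon. Hemgn-201 starts 9270 bases upstream of Hemgn-202, with 148 bases of its own, and Hemgn-202 has 190 bases of its own. The transcripts share 2173 exonic bases. With 14 counts the assignment in technical replicate 2 is loose. A count of 0 there allows a share of up to 21.4% for Hemgn-202, if each count could be placed, and the deposited posterior mean split was 52.61% for Hemgn-201 and 47.39% for Hemgn-202. In technical replicate 1 the posterior mean share of Hemgn-202 was 91.63%. The dominance of Hemgn-202 in technical replicate 1 rests on these 1100 counts, and a different leading transcript in technical replicate 2 is not shown at this depth.

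Nfe2 was spread over 7 transcripts in technical replicate 1 and held on 1 in technical replicate 2. Nfe2-201 had 100% of the gene's TPM in technical replicate 2, on 72 counts, against 19.04% in technical replicate 1, where Nfe2-206 led with 28.06% and Nfe2-209, Nfe2-204, Nfe2-208 and Nfe2-205 held between 10.78% and 14.68% each. The posterior mean share of Nfe2-201 was 50.67% in technical replicate 2 and 15.92% in technical replicate 1. Among the genes that kept their leader, Gata1-201 held 91.17% in technical replicate 2 and 73.82% in technical replicate 1, with Gata1-203 at 8.83% in technical replicate 2 and 23.09% in technical replicate 1. The shares of Gata1-203 rest on only 1.22 counts in technical replicate 2 and 4.96 in technical replicate 1. Its posterior mean shares were 13.65% in technical replicate 2 and 25.8% in technical replicate 1, so a shift is not shown. Gfi1b-201 held 100% in technical replicate 2 and 86.87% in technical replicate 1, and Zfpm1-201 held 100% in technical replicate 2 and 80.22% in technical replicate 1. The rest of Gfi1b in technical replicate 1, on Gfi1b-202, was 0.59 of a count. For Gfi1b and Zfpm1 the posterior mean shares named different leaders in the libraries, so their leading transcript is not settled at these counts. Lmo2-208 held 100% of Lmo2 in technical replicate 2 and 99.43% in technical replicate 1.

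**Figure D4:**
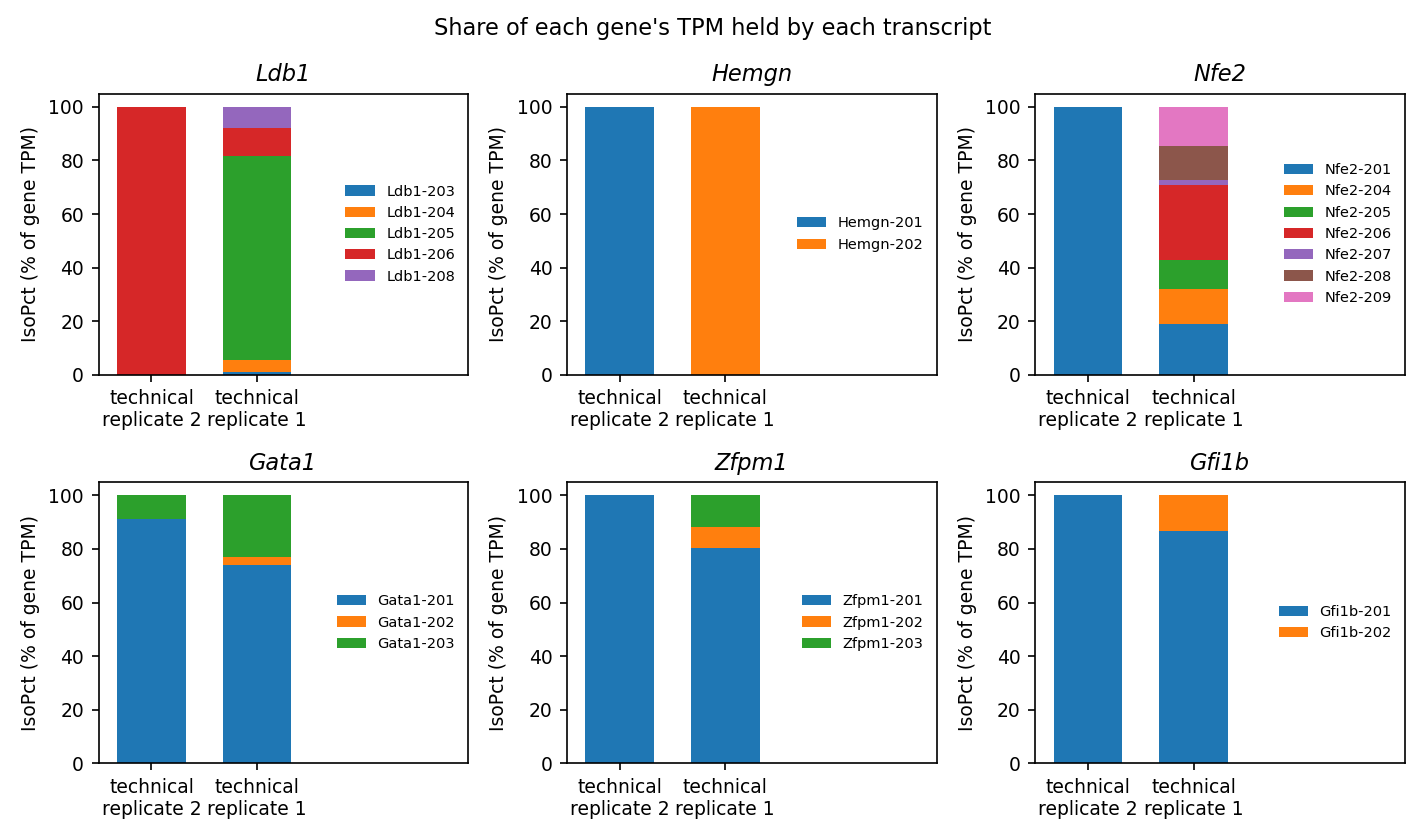
Share of each gene's TPM held by its transcripts (IsoPct, percent, y axis) for 6 genes, with technical replicate 2 as the left bar and technical replicate 1 as the right bar of each panel. Ldb1 is held by Ldb1-206 in technical replicate 2 and mainly by Ldb1-205 in technical replicate 1, Hemgn is listed on a different transcript in each library, and Nfe2 shows 1 transcript in technical replicate 2 and 7 in technical replicate 1.

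**Figure D5:**
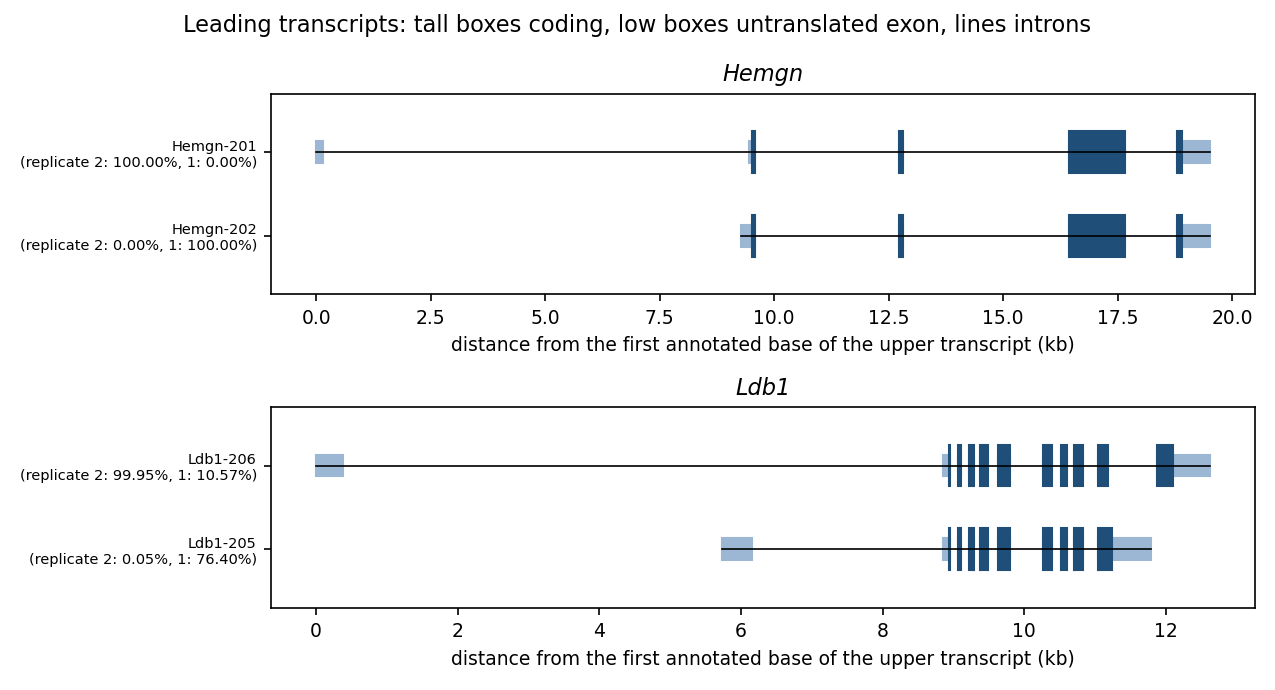
Annotated structure of the transcripts that led Hemgn and Ldb1, drawn 5' to 3' to scale in kilobases from the first base of the upper transcript (x axis). Tall boxes are coding exon, low boxes untranslated exon and lines introns, and the share of the gene's TPM in technical replicate 2 and then in technical replicate 1 stands beside each transcript. The Hemgn transcripts differ in the first exon, and the Ldb1 transcripts differ in the first exon and at the 3' end.

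RefSeq promoter windows (GRCm38.p6, 250 bases before to 50 after an annotated start) were matched for 8 of the 10 genes, 11 windows in all, and were not used for Lmo2 and Nfe2. The motifs searched on both strands were AGATAA or TGATAA for GATA factors and CCNCNCCC for KLF factors. A GATA match was present in 6 of the 11 windows, from 6 genes, beside 18.6% of all 32817 windows, and a KLF match in 9 of the 11, from 7 genes, beside 49.5% of all windows. The E box CANNTG was present in 7 of the 11 windows, beside 72.3% of all windows, and TGAGTCA, which NF-E2 binds, in 0 of the 11, beside 5.20% of all windows. A match is a description of letters in these windows and not evidence of binding. The windows of 4 genes called higher under TMM, of both Ldb1 starts nearest to the leading transcripts and of Hemgn are printed here 5' to 3' on the gene's strand. They show the binding letters of these factors near RefSeq starts, which are not always the starts of the leading transcripts. The downstream Ldb1 window is set on 46039621, the first base of Ldb1-202, which had 0 counts in both libraries. Ldb1-205 (46039481), Ldb1-206 (46045214) and Epor-201 (21963506) start outside the printed windows. No printed window covers the start of Hemgn-201 (46413506). Capitals mark GATA and KLF matches, where TTATCT and TTATCA are GATA matches read on the opposite strand and runs of G are KLF matches on the opposite strand.
Gata1, chrX:7967861-7968160, minus strand: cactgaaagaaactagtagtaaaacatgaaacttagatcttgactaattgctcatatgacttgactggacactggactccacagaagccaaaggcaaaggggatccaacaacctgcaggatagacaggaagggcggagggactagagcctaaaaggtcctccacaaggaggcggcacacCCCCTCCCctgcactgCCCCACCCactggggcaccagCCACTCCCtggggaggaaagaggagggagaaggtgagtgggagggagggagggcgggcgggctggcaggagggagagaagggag
Klf1, chr8:84901732-84902031, plus strand: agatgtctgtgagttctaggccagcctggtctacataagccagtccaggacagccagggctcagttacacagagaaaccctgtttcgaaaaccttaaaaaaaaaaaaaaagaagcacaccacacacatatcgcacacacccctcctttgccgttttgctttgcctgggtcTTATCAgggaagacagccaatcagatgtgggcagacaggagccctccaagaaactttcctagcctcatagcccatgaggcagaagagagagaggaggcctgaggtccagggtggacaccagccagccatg
Gfi1b, chr2:28621933-28622232, minus strand: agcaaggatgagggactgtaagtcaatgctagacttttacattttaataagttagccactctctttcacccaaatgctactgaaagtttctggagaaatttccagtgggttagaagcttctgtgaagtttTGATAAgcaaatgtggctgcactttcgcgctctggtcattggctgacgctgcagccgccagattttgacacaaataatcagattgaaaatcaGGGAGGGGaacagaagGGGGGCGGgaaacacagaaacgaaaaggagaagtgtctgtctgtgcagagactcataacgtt
Epor, chr9:21963527-21963826, minus strand: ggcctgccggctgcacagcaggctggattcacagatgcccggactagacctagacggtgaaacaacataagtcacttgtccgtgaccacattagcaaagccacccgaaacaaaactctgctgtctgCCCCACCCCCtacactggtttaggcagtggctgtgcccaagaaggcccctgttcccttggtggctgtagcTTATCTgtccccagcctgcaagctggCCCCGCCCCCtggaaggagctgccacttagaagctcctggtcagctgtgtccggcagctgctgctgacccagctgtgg
Hemgn, chr4:46404134-46404433, minus strand: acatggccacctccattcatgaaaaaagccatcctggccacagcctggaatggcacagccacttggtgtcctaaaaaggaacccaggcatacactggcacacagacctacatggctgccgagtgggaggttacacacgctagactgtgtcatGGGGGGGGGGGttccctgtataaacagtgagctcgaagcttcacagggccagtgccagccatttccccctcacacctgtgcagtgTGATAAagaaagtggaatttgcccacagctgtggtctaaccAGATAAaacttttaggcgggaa
Ldb1 downstream start, chr19:46039572-46039871, minus strand: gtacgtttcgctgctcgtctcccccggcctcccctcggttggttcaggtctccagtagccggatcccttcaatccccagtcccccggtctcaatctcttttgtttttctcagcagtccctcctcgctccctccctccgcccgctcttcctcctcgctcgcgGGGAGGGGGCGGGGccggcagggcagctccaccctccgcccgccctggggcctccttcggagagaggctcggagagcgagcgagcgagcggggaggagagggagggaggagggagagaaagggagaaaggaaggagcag
Ldb1 upstream start, chr19:46045262-46045561, minus strand: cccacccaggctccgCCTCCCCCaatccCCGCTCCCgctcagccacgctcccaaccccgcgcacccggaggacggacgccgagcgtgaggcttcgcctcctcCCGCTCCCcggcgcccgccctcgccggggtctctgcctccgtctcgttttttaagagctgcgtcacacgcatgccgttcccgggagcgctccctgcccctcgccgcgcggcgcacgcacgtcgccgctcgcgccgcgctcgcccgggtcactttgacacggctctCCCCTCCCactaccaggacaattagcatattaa
The Hemgn window holds 2 GATA matches, 13 bases before and 28 bases after the RefSeq start, which lies inside the first exon of Hemgn-202. Klf1 has 1 GATA match, 80 bases before its start, Gfi1b has 1 at 120 bases before and Epor has 1 at 54 bases before. The Gata1 window holds no GATA match and 3 KLF matches. Neither of the printed Ldb1 windows holds a GATA match, while the one not printed holds 2. The printed ones hold 3 KLF matches in the downstream window, which overlap each other, and 4 in the upstream window, which do not. The genes called higher and the gene called lower both include windows with GATA and KLF matches.

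Other genes of the pathway were counted from lists and read beside the 28.0% of tested genes called higher, the 32.6% called lower and the median of -0.27. Among 15 partners and cofactors of the GATA1 and TAL1 complex, 6 were called higher and 6 lower, with a median of -0.39. In this list, the subunits of the NuRD repressor complex Mta2, Hdac1, Chd4 and Hdac2, its most abundant members, were at log2 ratios of -0.39, -0.38, -1.29 and -2.27, of which Chd4 and Hdac2 were called lower. With the GC trend removed they were at -0.63, 0.02, -1.22 and -0.93 in the same order. Of 6 partners and competitors of NF-E2, 2 were called higher and 2 lower, with a median of -0.64. The NF-E2 relative Nfe2l1 (1.28) and the small Maf protein gene Mafg (1.79) were called higher, and the relative Nfe2l2 (-1.55) and the repressor Bach1 (-1.81) were called lower. Nfe2l1 and Mafg had a lower TPM in technical replicate 2 (22.37 and 8.72) than in technical replicate 1 (56.47 and 17.3). Under total counts they were at 0.01 and 0.53, within 1.5-fold, so these calls depend on the scaling. Nfe2l2 and Bach1 were at -2.81 and -3.07 under total counts, where the median of all tested genes was -1.53. With the GC trend removed, Nfe2l2 and Bach1 were nearer to no difference, at -0.62 and -0.91, and Nfe2l1 and Mafg were at 0.61 and 0.15. Of 11 other erythroid regulators, 4 were called higher and 3 lower, with a median of 0.14. The most abundant, Ikzf1, which encodes Ikaros, was called lower at -2.43 and so was Klf3, a repressor related to Klf1, at -3.19, while the globin repressor Bcl11a (0.10) and the cell cycle factor E2f4 (0.44) were not called.

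In the signalling list of the erythropoietin receptor, 11 of 13 genes were tested, 4 called higher and 3 lower, with a median of 0.42. Under TMM the receptor and its kinase stood on opposite sides. With the GC trend removed, Epor was at 0.86 and not called, and Jak2 was at -1.86. Jak2, the kinase bound to the receptor, had 49 counts and 1.73 TPM in technical replicate 2, against 7334 counts and 79.52 TPM in technical replicate 1, and was called lower at -3.11 (-3.55 to -2.70). Ptpn6, a phosphatase that ends the signal, was called higher at 2.41, with 324.78 TPM in technical replicate 2 and 271.86 TPM in technical replicate 1. Bcl2l1, a survival gene of late erythroblasts, was called higher at 4.12, with 40.32 TPM in technical replicate 2 and 26.40 TPM in technical replicate 1, and Pim1, a kinase induced by cytokines, was called higher at 2.51.

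Of 13 erythroid target genes, 5 were called higher and 3 lower, with a median of 0.54. Alas2, the first enzyme of heme synthesis in red cells, had 790.66 TPM in technical replicate 2 and 421.00 TPM in technical replicate 1 (log2 ratio 1.47, interval 1.41 to 1.53). The mitochondrial iron importer Slc25a37 (1.46) and the transferrin receptor Tfrc (1.39) were called higher under TMM, with a lower TPM in technical replicate 2, and carbonic anhydrase Car2 (-0.14) was not called.

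Markers of other cells that use these factors were read beside them. The megakaryocyte and platelet list summed to 203.89 TPM over 10 genes in technical replicate 2 and 165.47 TPM in technical replicate 1, and of the 7 tested 5 were called higher and 2 lower, with a median of 2.97. Itga2b, the platelet integrin, was called higher at 5.11, with 99.53 TPM in technical replicate 2 and 3.51 TPM in technical replicate 1, as were Pf4 at 3.62 and Clec1b at 1.02, while the platelet chemokine Ppbp was called lower at -1.76 and Gp1ba was at 0 in technical replicate 2. With the GC trend removed, Itga2b, Pf4 and Clec1b were at 2.20, 4.02 and 2.25, and Ppbp was within 1.5-fold at -0.33. The direction of the summed TPM rests on Itga2b. Clec1b had a lower TPM in technical replicate 2 (26.38) than in technical replicate 1 (34.3), and its log2 ratio under total counts was -0.24. The mast cell, basophil and eosinophil list summed to 6.74 TPM over 8 genes in technical replicate 2 and 44.01 TPM in technical replicate 1. In technical replicate 2, 5 of its genes were at 0, among them Cpa3, a mast cell protease. These 5 had between 1 and 51 counts in technical replicate 1 and did not pass the filter. At the lower depth of technical replicate 2, their 0 counts do not show absence. Of the 3 genes tested, Kit was called lower at -3.28, while Prg2 (1.25) and Hdc (0.23) were not called. Blood progenitor markers summed to 18.47 TPM over 5 genes in technical replicate 2 and 72.70 TPM in technical replicate 1, with 2 called higher and 1 lower, and none was at 0. The gene called lower was again Kit, which is also among those called lower in the signalling list of the erythropoietin receptor. These lists share genes and are not separate observations. Endothelial markers summed to 164.13 TPM over 7 genes in technical replicate 2 and 229.26 TPM in technical replicate 1, with 2 called higher, 1 lower and none at 0. The part of these cells in the values of the 10 genes was not tested.

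The spleen label was checked on 9 markers of its B cells, T cells, macrophages and stroma. None was at 0 in either library, and they summed to 730.42 TPM in technical replicate 2 and 2135.63 TPM in technical replicate 1. Of these, 4 were called higher and 4 lower. The B cell gene Cd79a was at 504.33 TPM in technical replicate 2 and 495.53 TPM in technical replicate 1, while Ms4a1 was at 63.47 TPM in technical replicate 2 and 630.38 TPM in technical replicate 1 and was called lower.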

How the data were processed

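Polyadenylated RNA of 1 spleen was measured in 2 libraries. Per the text deposited with the tables, reads were mapped to mm10 with GENCODE M4. Which aligner and quantifier were run is not given in the sources used here. By their headers, the deposited gene and transcript tables hold an expected count, TPM (a level per length), FPKM, a percent value (IsoPct, the share of a gene's TPM per transcript) and posterior means. The authors also deposited interval bounds and posterior SDs (used as signal values) and, as other columns, transcript lengths in bases.

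Expected counts were rounded. Rows without an Ensembl identifier stayed out and held 2.10e-04% of counts in technical replicate 2 and 1.09e-05% in technical replicate 1. Tested genes reached 1 TPM on average and 50 counts summed over the libraries. TMM factors came from edgeR 4.0.16 (R 4.3.3), and DESeq2 1.42.0 size factors, total counts, TPM ratios (pseudocounts 1 and 0.1), filters, thresholds and removal of GC and length trends (lowess, fraction 0.3, statsmodels 0.14.6) were alternatives. Intervals (95%) cover counting error only, since reads from PCR are not independent molecules; a count of 0 allows up to 3 counts. GC content, coordinates and exons came from GENCODE M21 on GRCm38, and GC content was averaged over transcripts weighted by TPM in these libraries. Python 3.11.15, scipy 1.17.1 and matplotlib 3.10.9 were used.

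The 10 genes and all lists were chosen with earlier results of these data known. All 10 are named, and from each list at most 4 genes, those with the highest mean TPM, plus a marker at 0.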

Additional observations from a re-analysis of the deposited data

How the results depend on the processing

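Under DESeq2 size factors and TMM without globin genes no call of the 10 genes changed. Under total counts the median log2 ratio was 1.06, 5 genes were called higher (without Nfe2) and 3 lower (Hemgn, Tal1 and Lmo2), beside 14.6% and 58.5% of all tested genes. TMM over all Ensembl genes, an alternative chosen after seeing the data, called 2 genes lower, beside 38.5% of tested genes. An interval beyond 1-fold called 7 genes higher and 2 lower, with no share over all tested genes to set beside it, so these counts are not read further. As TPM ratios the median was -0.12 (pseudocount 1) and -0.40 (pseudocount 0.1), with 5 genes lower under each, beside 80.8% and 81.5% of tested genes, and 0.032 with 4 lower, beside 79.3%, from posterior mean TPM; Zfpm1 was at -0.75 and -1.36 for the 2 pseudocounts, and Nfe2 at -1.36, -1.46 and, from posterior means, -1.15. With the GC trend removed the median was 0.37, Klf1 was at -0.12 and Zfpm1 at -3.59. With GC and length trends removed the median was 0.26, 3 genes were higher, beside 26.8% of tested genes, Klf1 was at -0.55 and Zfpm1 at -3.26. The cause was not tested. Dominant transcripts from posterior means were the same for 2 of the 7 genes instead of 4, and those by expected count for 5, with Nfe2 among them. Posterior mean TPM moved 7 of 20 levels beyond counting error and FPKM moved 0. Depth limits Zfpm1 (11 counts) and Hemgn (14 counts) most, both in technical replicate 2. With 1 library on each side no library could be left out. No paired analysis was possible because there is 1 library on each side, both of biological replicate 1, and no test was made.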
